A study of Mus musculus with 4 samples.

Results

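The genes of DNA replication licensing and nucleotide supply were 45 genes chosen by name, and all 45 were among the 18194 genes measured. They comprised the MCM2-7 helicase, its activators, the origin recognition complex, the licensing factors, the DBF4-dependent kinase, the sliding clamp and its loader, polymerases and primase, RPA, the enzymes that join Okazaki fragments, nucleotide synthesis enzymes and G1/S regulators. A gene with several probe sets (groups of short array oligonucleotides for a transcript) was represented by that with the highest mean over the arrays. Expression had been measured on 4 Affymetrix arrays in dendritic cells of C57BL/6 mice, 2 from cells given diluent (control) and 2 from cells given SAHA for 12 hours at a dose that the labels write as 500 nm. SAHA (vorinostat) inhibits histone deacetylases. In both groups marrow of at least 3 mice per experiment had been cultured 7 days in GM-CSF plus IL-4 (10 ng/ml of each cytokine), and CD11c-positive cells had been selected to a stated purity of 95%. The labels call the arrays of a group biological replicates. They do not give the age of the mice or say whether each array had a marrow pool of its own, and the p-values rest on the spread between arrays of a group.

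Before a cell can copy its DNA, the origin recognition complex together with CDC6 and CDT1 loads the MCM2-7 ring onto chromatin in G1, a step called licensing, and geminin blocks it later in the cycle. The DBF4-dependent kinase, CDC45, GINS and MCM10 then turn the ring into a working helicase, and polymerases, PCNA with its RFC loader, RPA, FEN1 and DNA ligase I make the new strands from nucleotides that ribonucleotide reductase, thymidylate synthase and thymidine kinase supply. Many of these genes are transcribed in late G1 and S phase under E2F factors. Precursors in GM-CSF marrow cultures divide, whereas mature dendritic cells have mostly left the cycle.

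The values are log2 intensities per probe set. Array medians lay within 0.0118 of each other, and correlations across all genes were 0.993 between the control arrays, 0.995 between the SAHA arrays and 0.983 to 0.989 between groups. Of the dendritic cell markers, Itgax, the CD11c chain, was at 12.44 to 13.40, the class II chain H2-Ab1 at 13.61 to 13.83 and the invariant chain Cd74 at 14.17 to 14.23. The mean of 7 dendritic markers was 11.61 and 11.64 in control and 11.45 and 11.54 with SAHA. That of 5 macrophage or monocyte markers was higher on every array, at 12.06 and 12.29 in control and 11.67 and 12.02 with SAHA. These levels do not separate dendritic cells from macrophages. An exact two-sided permutation test of 2 arrays against 2 cannot go below p = 0.333 for a single gene, so the tests below come from limma fitted across all genes, with Benjamini-Hochberg adjustment over all of them and a threshold of 0.05. By this test 405 of 18194 genes differed (2.23%), 129 lower (0.709%) and 276 higher (1.52%) with SAHA, and the total was 31 without SAHA replicate 1 and 90 without SAHA replicate 2.

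Of the replication genes 3 passed this threshold, all lower with SAHA: the helicase subunit Mcm5, the polymerase epsilon catalytic subunit Pole and thymidine kinase Tk1. No member passed on the higher side. In RNA from bulk CD11c-selected cells, fewer cells of a type and less RNA per cell cannot be told apart. These are 3 of 45 members (6.67%), beside 0.709% of all genes on the lower side. At an unadjusted p under 0.05 there were 19 members lower (42.2%, against 8.9% of all genes) and 3 higher (6.67%, against 9.17%). Over the 45 members the median log2 change was -0.31, with 34 below 0 (75.6%, against 58.8% of all genes), where the median of all genes was -0.05. The count of members past the threshold was 0 without SAHA replicate 1, 1 (Pole) without SAHA replicate 2, 5 without control replicate 1, among them Cdc7 on the higher side, and 11 without control replicate 2. The median moved to -0.16 without control replicate 1 and stayed between -0.40 and -0.28 without each of the others. A fit without 1 array takes its spread only from the group that keeps 2 arrays. A call gained or lost there therefore reflects which pair supplied the spread as well as the array left out.

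Both SAHA values lay under both control values for 25 members (55.6%, against 29.6% of all genes), and above them for 5 members (11.1%, against 21.1%). Those 5 were Orc3, Pcna, Rfc1, Rfc2 and Ccne1. Between arrays of the same replicate number, 29 members were lower with SAHA in both comparisons (64.4%, against 42.3% of all genes) and 6 were higher in both (13.3%, against 29.6%), the 5 just named and Orc4. No label says that arrays of the same number share a culture. A log2 change of -1 or lower was found for 7 members (15.6%, against 0.918% of all genes), namely Mcm5, Pole, Rrm2, Tk1, Mcm10, Cdc6 and Rfc3, and for none of the 45 was it 1 or higher.

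**Figure D1:**
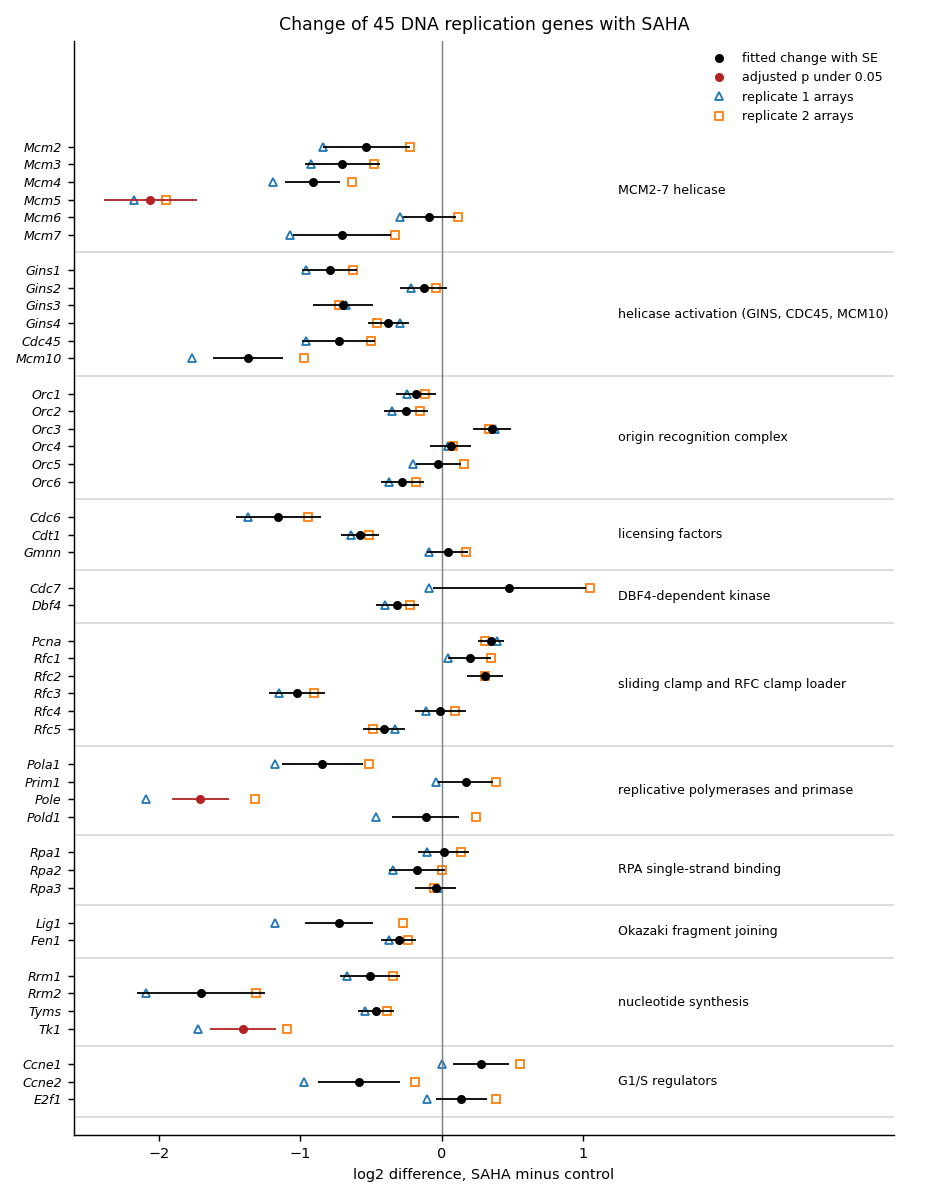
Log2 change (x axis, SAHA minus control) of each of the 45 genes, grouped by role. Filled circles are fitted changes with their SE, in red for the 3 genes with an adjusted p under 0.05 (Mcm5, Pole, Tk1), and open symbols are the differences between arrays of the same replicate number, which lie below 0 for both numbers in 29 genes.

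The MCM2-7 hexamer is the ring that unwinds DNA ahead of the fork, and of its 6 subunits Mcm5 fell and the other 5 did not pass the threshold. Mcm6 had a change near 0 and the other 4 lay between these, with no test made of the difference between subunits. Mcm5 was 9.64 and 8.78 on the control arrays and 7.46 and 6.83 on the SAHA arrays, a 4.18-fold lower level (log2 change -2.06 ± 0.33, SE, limma adjusted p = 0.0400). The groups were 1 log2 unit or more apart, although within each group the replicate 1 array was the higher. The call was lost without SAHA replicate 1 and without SAHA replicate 2, where the spread comes from the control arrays alone. The changes in these fits were -2.38 and -1.75. The name of the Mcm5 probe set marks possible cross-hybridisation, and a further Mcm5 probe set without such a mark was 8.44 and 7.38 in control and 6.19 and 5.63 with SAHA, a change of -1.995.

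Mcm4 was 9.32 and 8.82 in control and 8.13 and 8.19 with SAHA (log2 change -0.91 ± 0.20, SE, limma adjusted p = 0.0772). Mcm3 was 9.30 and 8.55 in control and 8.38 and 8.07 with SAHA (-0.70 ± 0.27, adjusted p = 0.239). The groups of both genes did not overlap, and neither gene passed the threshold. Mcm7 was 10.18 and 9.09 in control and 9.11 and 8.76 with SAHA (-0.70 ± 0.35, adjusted p = 0.350). Mcm2 was 9.30 and 8.36 in control and 8.46 and 8.14 with SAHA (-0.53 ± 0.31, adjusted p = 0.421). In Mcm2 and Mcm7 the groups overlapped, because SAHA replicate 1 reached the level of control replicate 2. Mcm6 was 10.22 and 9.73 in control and 9.92 and 9.85 with SAHA, a change of -0.09 with a 95% interval from -0.54 to 0.36, so both SAHA values sat inside the control range. The median over the 6 subunits was -0.70, and it was -0.24 without control replicate 1 and -1.12 without control replicate 2. The control arrays themselves differed by 0.48 to 1.09 log2 units for every subunit, with replicate 1 higher each time.

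The further probe sets of the helicase genes with all values above the 25th percentile of their arrays gave changes of -0.90 for Mcm2, -1.08 for Mcm4 and -0.04 for Mcm6. For Mcm7 they gave -0.83, -0.56 and -0.58, and for Mcm3 -0.67, -0.74, -0.51 and -0.14, the last from a probe set with values of 4.32 to 4.49. On the further probe set of Mcm2 the groups did not overlap, at 8.84 and 7.78 in control and 7.56 and 7.26 with SAHA. On these further probe sets too Mcm5 had the largest change and Mcm6 the smallest.

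**Figure D2:**
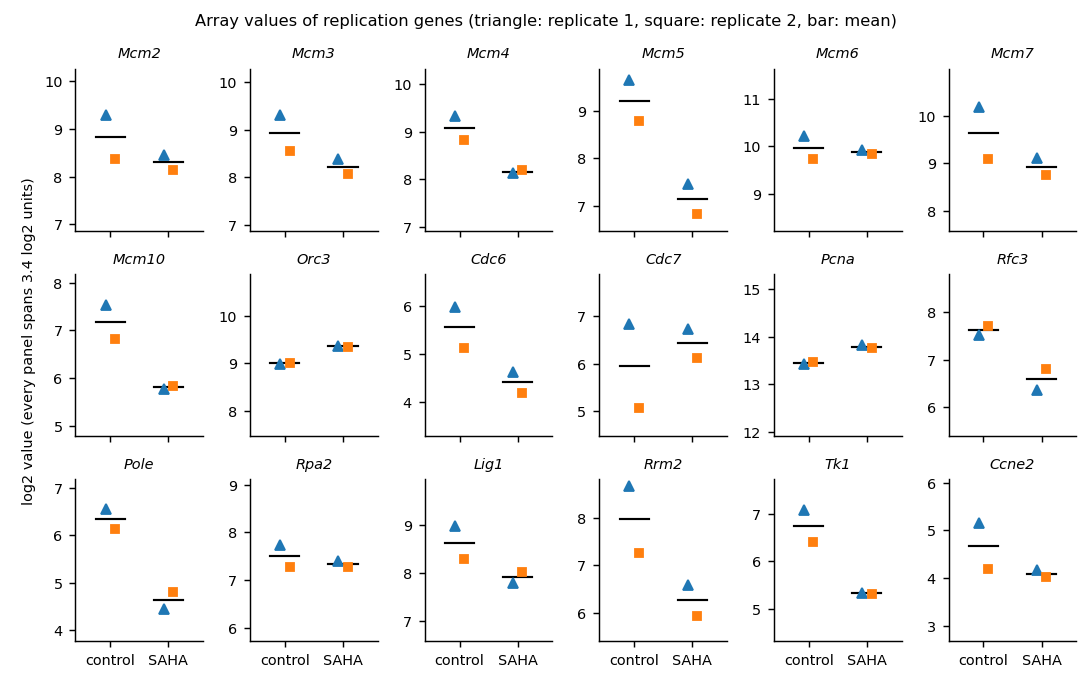
Log2 value (y axis, 3.4 log2 units in every panel) of 18 replication genes on the 2 control and 2 SAHA arrays, with triangles for replicate 1, squares for replicate 2 and bars for group means. Mcm5, Pole, Tk1, Rrm2, Mcm10, Cdc6 and Rfc3 show no overlap between groups, whereas in Mcm6, Rpa2 and Cdc7 the groups overlap.

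Members were chosen by name as replication genes, and many such genes are transcribed under E2F factors. A share of E2F words above that of all genes can come with this choice and does not bear on SAHA. The promoters of members are shown to describe which of them carry E2F words. Of the helicase genes, Mcm3, Mcm5, Mcm6 and Mcm7 carry them, with log2 changes of -0.70, -2.06, -0.09 and -0.70. Windows of 300 bases, from 250 before to 50 after a start site, came from RefSeq on GRCm38.p6 and were available here for 37 of the 45 genes. Mcm4 and Pole were among the genes without a window. The words TTTGGCGC, TTTCGCGC, TTTGCCGC and TTTCCCGC were searched on both strands, overlaps between words included, a choice made after the changes had been seen. At least 1 word was present in 13 of 37 member genes (35.1%), against 2.61% of the 27025 genes with a window. Counted by window, it was 13 of 45 member windows (28.9%), against 2.27% of all 32851 windows and 3.26% of the 19938 windows with a GC content of 50% or more. The member windows had a median GC content of 62.3%, against 52.7% for all windows. The word CCAAT, which NF-Y binds, was present on either strand in 22 of 37 member genes (59.5%), against 41.1% of all genes.

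Of the 13 members with an E2F word 12 had a log2 change below 0, with a median of -0.70 and a range from -2.06 for Mcm5 to 0.36 for Orc3. Of the 24 members with a window and no such word 16 were below 0, with a median of -0.21 and a range from -1.70 for Rrm2 to 0.48 for Cdc7. The ranges overlapped widely, and these values are given as a description. Shown here, each 5′ to 3′ on its gene's strand with the E2F words in capitals, are Mcm5 (chr8:75109259-75109558, plus strand), Mcm6 (chr1:128359656-128359955, minus strand), Mcm3 (chr1:20820263-20820562, minus strand), Mcm7 (chr5:138171834-138172133, minus strand), Cdc6 (chr11:98907901-98908200, plus strand) and Rfc3 (chr5:151651159-151651458, minus strand). For contrast, Tk1 (chr11:117825965-117826264, minus strand) and Rrm2 (chr12:24708004-24708303, plus strand) were low with SAHA and hold none of the words.
Mcm5: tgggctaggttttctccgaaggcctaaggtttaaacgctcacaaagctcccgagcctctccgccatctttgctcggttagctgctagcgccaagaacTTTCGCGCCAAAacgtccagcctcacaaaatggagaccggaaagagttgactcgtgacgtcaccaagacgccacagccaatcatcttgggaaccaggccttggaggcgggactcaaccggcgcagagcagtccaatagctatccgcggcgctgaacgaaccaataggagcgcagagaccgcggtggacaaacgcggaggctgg
Mcm6: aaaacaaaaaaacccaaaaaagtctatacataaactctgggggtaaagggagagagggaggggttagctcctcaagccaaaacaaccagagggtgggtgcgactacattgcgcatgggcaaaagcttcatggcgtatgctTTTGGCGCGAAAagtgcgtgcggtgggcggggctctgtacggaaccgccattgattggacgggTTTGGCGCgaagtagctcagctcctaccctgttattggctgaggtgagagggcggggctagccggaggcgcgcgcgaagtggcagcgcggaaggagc
Mcm3: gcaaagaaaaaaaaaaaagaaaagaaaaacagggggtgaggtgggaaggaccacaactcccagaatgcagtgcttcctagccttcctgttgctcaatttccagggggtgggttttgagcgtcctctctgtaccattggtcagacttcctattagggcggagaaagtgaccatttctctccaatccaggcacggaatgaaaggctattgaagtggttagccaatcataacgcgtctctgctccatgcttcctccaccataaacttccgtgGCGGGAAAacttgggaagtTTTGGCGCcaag
Mcm7: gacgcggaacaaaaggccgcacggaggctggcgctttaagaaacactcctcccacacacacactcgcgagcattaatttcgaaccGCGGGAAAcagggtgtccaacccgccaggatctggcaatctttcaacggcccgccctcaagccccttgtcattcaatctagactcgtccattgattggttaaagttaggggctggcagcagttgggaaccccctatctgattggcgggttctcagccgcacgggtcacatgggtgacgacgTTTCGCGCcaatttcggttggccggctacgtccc
Cdc6: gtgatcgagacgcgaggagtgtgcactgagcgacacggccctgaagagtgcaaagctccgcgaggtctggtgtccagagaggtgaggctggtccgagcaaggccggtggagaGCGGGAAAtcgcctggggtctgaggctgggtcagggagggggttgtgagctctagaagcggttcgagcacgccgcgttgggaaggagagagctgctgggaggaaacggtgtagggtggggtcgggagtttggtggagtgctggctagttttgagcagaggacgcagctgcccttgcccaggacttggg
Rfc3: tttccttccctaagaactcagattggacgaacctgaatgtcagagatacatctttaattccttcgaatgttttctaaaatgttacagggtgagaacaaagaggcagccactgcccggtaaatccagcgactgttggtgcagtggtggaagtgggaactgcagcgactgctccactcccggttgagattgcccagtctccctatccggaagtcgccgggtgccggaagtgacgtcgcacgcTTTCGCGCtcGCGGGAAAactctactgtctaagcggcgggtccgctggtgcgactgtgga
Tk1: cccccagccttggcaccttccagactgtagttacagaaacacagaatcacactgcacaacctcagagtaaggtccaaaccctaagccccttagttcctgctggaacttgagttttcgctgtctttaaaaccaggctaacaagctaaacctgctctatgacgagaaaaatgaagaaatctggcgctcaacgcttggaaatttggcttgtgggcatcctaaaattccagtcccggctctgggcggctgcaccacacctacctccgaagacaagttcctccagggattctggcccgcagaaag
Rrm2: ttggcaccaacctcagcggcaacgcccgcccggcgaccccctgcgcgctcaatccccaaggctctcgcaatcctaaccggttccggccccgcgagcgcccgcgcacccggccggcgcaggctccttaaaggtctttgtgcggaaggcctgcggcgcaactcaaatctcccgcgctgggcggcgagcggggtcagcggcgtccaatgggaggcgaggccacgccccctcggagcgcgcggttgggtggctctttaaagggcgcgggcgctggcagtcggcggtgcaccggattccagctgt
In Mcm5 a pair of overlapping words formed a single site whose first base lay 153 bases before the start. In Mcm6 such an overlapping pair began 110 bases and a further word 47 bases before the start. The helicase subunit with the largest change and the subunit with the smallest thus both carried an overlapping pair. In Mcm3 the words began 19 and 38 bases after the start, in Mcm7 165 before and 16 after it, and in Rfc3 they lay 10 bases before and at the start itself. A further window of Mcm7, at another start site, held no such word, and neither did that of Mcm2. A match is a run of letters and does not show that a factor binds there.

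The proteins that turn the loaded ring into an active helicase were all below 0, with a median log2 change of -0.71 over Mcm10, Cdc45 and the 4 GINS subunits, and none passed the threshold. The groups did not overlap for 5 of these 6 genes. Mcm10, which helps start unwinding at the origin, was 7.53 and 6.81 in control and 5.77 and 5.84 with SAHA, 2.58-fold lower (log2 change -1.37 ± 0.25, SE, limma adjusted p = 0.0517). Its SAHA arrays agreed within 0.1 of a log2 unit while its control arrays were 0.72 apart. The change of Mcm10 was -1.01 without control replicate 1 and -1.73 without control replicate 2. It was -1.33 without SAHA replicate 1 and -1.41 without SAHA replicate 2. A further probe set of Mcm10, with values of 4.23 to 4.62, gave -0.27.

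Cdc45, which joins the ring in the active helicase, had a change of -0.73 ± 0.26 (SE, limma adjusted p = 0.219), and its further probe set, at 5.19 to 5.30, gave 0.00 with overlapping groups. Among the GINS subunits, which complete that helicase, Gins1 had a change of -0.79 ± 0.19 (adjusted p = 0.103), Gins3 of -0.70 ± 0.21 (0.167), Gins4 of -0.38 ± 0.14 (0.240) and Gins2 of -0.13 ± 0.17 (0.723). Gins2 was the 1 gene of the group whose arrays overlapped, at 8.16 and 7.87 in control and 7.95 and 7.83 with SAHA. In Gins3 and Gins4, unlike the other 4, control replicate 2 was the higher control array. The further probe set of Gins3 gave -0.93. Without control replicate 1 the median of the group was -0.51.

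The origin recognition complex binds replication origins through much of the cycle, and its 6 subunits had small changes in both directions, from -0.28 for Orc6 to 0.36 for Orc3, with a median of -0.10. None passed the threshold. Orc3 was 8.99 and 9.01 in control and 9.37 and 9.34 with SAHA (log2 change 0.36 ± 0.13, SE, limma adjusted p = 0.239). Both pairs of its values were tight and the groups did not overlap, and its further probe sets gave 0.29 and 0.47. Orc2 had a change of -0.25 and Orc1, the subunit known to vary over the cycle, of -0.18, and with Orc6 these were the 3 whose SAHA values lay under both controls. Orc4 had 0.06 and Orc5 -0.02, with 95% intervals from -0.29 to 0.42 and from -0.41 to 0.36. The Orc4 probe sets differed, since 2 further ones gave 0.32 and 0.28.

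Cdc6 and Cdt1 load the ring with the origin recognition complex, and geminin (Gmnn) inhibits Cdt1. Cdc6 was 6.00 and 5.13 in control and 4.63 and 4.18 with SAHA, 2.23-fold lower (log2 change -1.16 ± 0.30, SE, limma adjusted p = 0.119), with its nearest arrays of the groups closer together than its control arrays. It was read by its single probe set, and its change was -0.72 without control replicate 1 and -1.59 without control replicate 2. Cdt1 was 10.16 and 10.04 in control and 9.52 and 9.52 with SAHA (-0.58 ± 0.13, adjusted p = 0.0918). Here the arrays of each group lay close together, the groups did not overlap, and a further probe set gave -0.75. Gmnn was 9.27 and 9.17 in control and 9.18 and 9.34 with SAHA, a change of 0.04 with a 95% interval from -0.30 to 0.39.

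The kinase that fires licensed origins consists of Cdc7 and its activator Dbf4. Cdc7 was 6.83 and 5.07 in control and 6.74 and 6.12 with SAHA (log2 change 0.48 ± 0.54, SE, limma adjusted p = 0.677). Its control arrays were 1.76 apart, the widest gap among the 45 members, and they enclosed both SAHA arrays. The change was 1.36 without control replicate 1 (adjusted p = 0.0470) and -0.40 without control replicate 2 (0.600), and a further probe set gave -0.03. Dbf4 had a change of -0.31 ± 0.15 (adjusted p = 0.338), with SAHA values of 7.34 and 7.45 under control values of 7.74 and 7.68.

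PCNA is the ring that holds polymerases on DNA, and RFC is the complex of 5 subunits that loads it. This group went both ways, with a median of 0.09. Pcna was 13.43 and 13.46 in control and 13.82 and 13.77 with SAHA (log2 change 0.35 ± 0.09, SE, limma adjusted p = 0.128). Its groups did not overlap and it lay on the higher side, opposite to the helicase genes, but it did not pass. Rfc2 had 0.31 ± 0.13 (0.273), and its further probe sets gave 0.38 and 0.30. Rfc1, the large subunit, had 0.20 ± 0.15 (0.529), with 0.22 and 0.15 on its further probe sets. Rfc3 went the other way, at 7.52 and 7.71 in control and 6.37 and 6.81 with SAHA, 2.04-fold lower (-1.03 ± 0.20, adjusted p = 0.0598). Its control replicate 2 was the higher control array, and a further probe set gave -0.89. Rfc5 had -0.41 ± 0.15 (0.220) and Rfc4 -0.01 with a 95% interval from -0.44 to 0.42. Subunits of a single complex thus ranged from -1.03 to 0.31, and the difference between subunits was not tested.

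Among polymerases, Pole, the catalytic subunit of the leading-strand enzyme polymerase epsilon, fell. It was 6.54 and 6.13 in control and 4.45 and 4.81 with SAHA, 3.27-fold lower (log2 change -1.71 ± 0.20, SE, limma adjusted p = 0.0193). The groups were 1.32 apart at their nearest arrays, and Pole was read by its single probe set. Pole passed without each array in turn except SAHA replicate 1, where its change was -1.53 (adjusted p = 0.117). Pola1, the catalytic subunit of polymerase alpha, which begins each fragment, was 6.97 and 6.11 in control and 5.79 and 5.60 with SAHA (-0.84 ± 0.28, adjusted p = 0.199). Its partner Prim1, the primase that lays down the RNA primer, was 7.54 and 7.08 in control and 7.50 and 7.46 with SAHA, a change of 0.17 (0.679). Pold1, the catalytic subunit of polymerase delta, had -0.11 with a 95% interval from -0.68 to 0.45. For Prim1 and Pold1 the SAHA arrays lay inside the control range. The median of the 4 genes was -0.48, and it was -0.10 without control replicate 1 and -0.86 without control replicate 2.

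RPA coats the single strands that the helicase exposes, and its 3 subunits had changes of 0.01 (Rpa1), -0.17 (Rpa2) and -0.04 (Rpa3). Rpa2 was 7.74 and 7.28 in control and 7.40 and 7.28 with SAHA (± 0.20, SE, limma adjusted p = 0.681), and without control replicate 1 its change was 0.059. The 95% intervals were -0.42 to 0.44, -0.65 to 0.30 and -0.39 to 0.31. The groups of all 3 genes overlapped on the probe sets used. A further probe set of Rpa2 was 7.542 and 7.224 in control and 7.217 and 6.785 with SAHA. Its change was -0.38 and its groups did not overlap, while a further probe set of Rpa1 gave -0.06 with overlapping groups.

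Fen1 trims and Lig1 seals the fragments of the lagging strand. Lig1 was 8.98 and 8.30 in control and 7.80 and 8.03 with SAHA (log2 change -0.73 ± 0.24, SE, limma adjusted p = 0.197). Fen1 was 10.96 and 10.88 in control and 10.59 and 10.64 with SAHA (-0.31 ± 0.12, adjusted p = 0.264), and its further probe set gave -0.50. Neither gene passed and neither had overlapping groups.

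The nucleotide synthesis genes had the lowest median of the 11 groups, -0.96, and the groups of arrays did not overlap for any of the 4. Tk1, which salvages thymidine, fell from 7.06 and 6.40 in control to 5.34 and 5.31 with SAHA, a 2.65-fold lower level (log2 change -1.41 ± 0.23, SE, limma adjusted p = 0.0417). Its SAHA arrays were nearly equal while the control arrays were 0.66 apart. The call was lost without SAHA replicate 1 and without SAHA replicate 2, where the spread comes from the control arrays alone. The changes in these fits were -1.42 and -1.39. Rrm2, the inducible small subunit of ribonucleotide reductase, was 8.68 and 7.26 in control and 6.59 and 5.95 with SAHA, 3.26-fold lower (-1.70 ± 0.46, adjusted p = 0.127). Its change was close in size to that of Pole, but its control arrays were 1.41 apart, and it passed only without control replicate 2 among the fits without an array (-2.41, adjusted p = 0.0118). Its further probe sets gave -1.42 and -1.74. Rrm1, the large subunit, was 9.53 and 8.99 in control and 8.86 and 8.64 with SAHA (-0.51 ± 0.21, adjusted p = 0.281), with -0.53 on a further probe set. Tyms, which makes thymidylate, was 5.04 and 4.86 in control and 4.50 and 4.47 with SAHA (-0.46 ± 0.13, adjusted p = 0.139). Its level was low, with a control mean at percentile 33.4 of all genes, though no value was under the 25th percentile of its array. Its 3 further probe sets had every value under that percentile.

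Cyclin E genes and E2f1 drive entry into S phase, and they did not share a direction. Ccne2 was 5.14 and 4.20 in control and 4.17 and 4.01 with SAHA (log2 change -0.58 ± 0.29, SE, limma adjusted p = 0.356). The level of Ccne2 was low, with a control mean at percentile 29.1 of all genes. Control replicate 2 lay within 0.1 of SAHA replicate 1, so the gap rested on control replicate 1. The change of Ccne2 was -0.11 without control replicate 1 and -1.06 without control replicate 2. Ccne1 was 8.38 and 7.90 in control and 8.39 and 8.45 with SAHA (0.28 ± 0.20, adjusted p = 0.499). E2f1 was 8.25 and 7.85 in control and 8.14 and 8.23 with SAHA, a change of 0.14 with a 95% interval from -0.30 to 0.58. In both Ccne1 and E2f1 control replicate 1 stood at the level of the SAHA arrays. Ccne2 and E2f1 were among the members whose size or sign of change depended on a single control array. E2f1 had a difference of -0.11 between replicate 1 arrays and 0.39 between replicate 2 arrays.

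**Figure D3:**
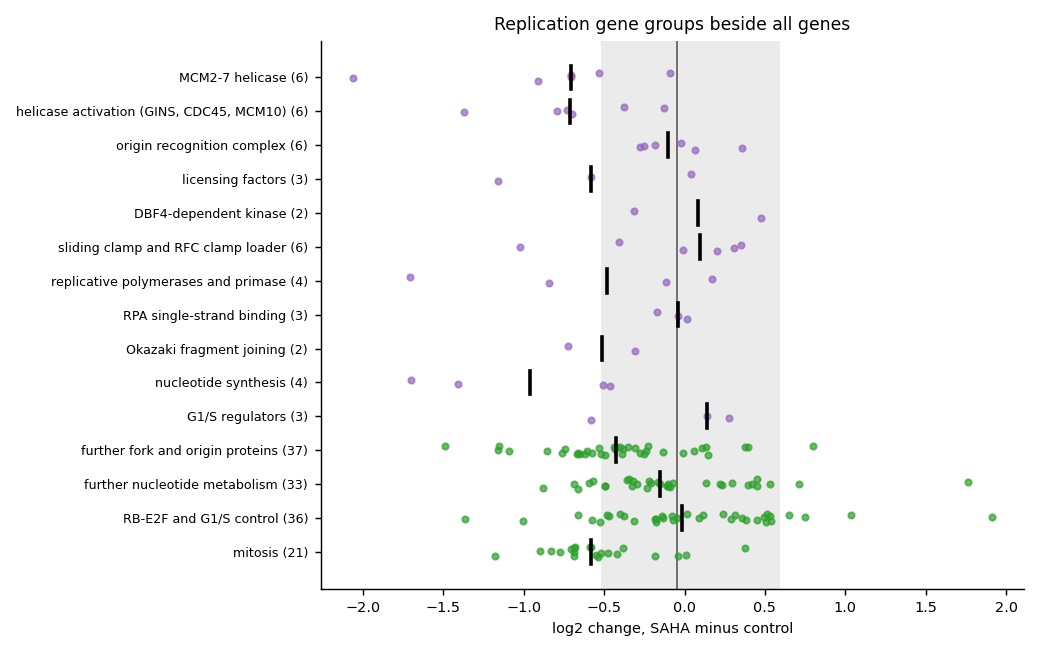
Log2 change (x axis, SAHA minus control) of every measured gene of the 11 member groups (purple) and of 4 further lists (green), with gene numbers in brackets and black bars at the medians. The grey band spans the 5th to 95th percentile of all genes (-0.51 to 0.59) around their median and describes single genes, not medians of lists. The list medians run from -0.96 for nucleotide synthesis to 0.14 for the G1/S regulators.

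Control replicate 1 exceeded control replicate 2 for 37 of the 45 members (82.2%, against 45.7% of all genes), by a median of 0.41 log2 units. It did so by 0.5 or more for 15 members (33.3%, against 5.01% of all genes), while control replicate 2 exceeded it by that much for 0. The 15 included 4 helicase subunits, 3 of the 4 nucleotide synthesis genes, Mcm10, Cdc45 and Pola1. Between the SAHA arrays, replicate 1 was higher for 26 members (57.8%, against 44.5%), by a median of 0.03. The control arrays were thus further apart in these genes than the SAHA arrays.

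**Figure D4:**
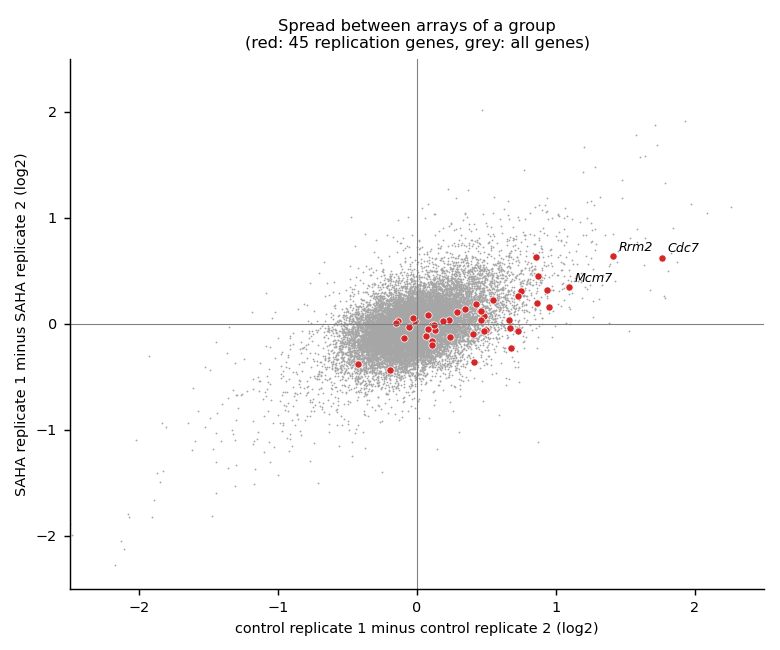
Difference between the control arrays (x axis, log2, replicate 1 minus replicate 2) and between the SAHA arrays (y axis) for the 45 replication genes in red and all genes in grey. The red points extend to the right, to 1.76 for Cdc7, 1.41 for Rrm2 and 1.09 for Mcm7, and 7 genes lie outside the plotted range.

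The 45 members had 53 further probe sets, of which 41, for 29 genes, had all values above the 25th percentile of their arrays. Of these 41 the sign was that of the probe set used for 36, and 28 were below 0. The exceptions were in genes with changes near 0 (E2f1, Rpa1 and Rfc4) and in Cdc7 and Cdc45. Pole, Tk1 and Cdc6 had no further probe set.

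**Figure D5:**
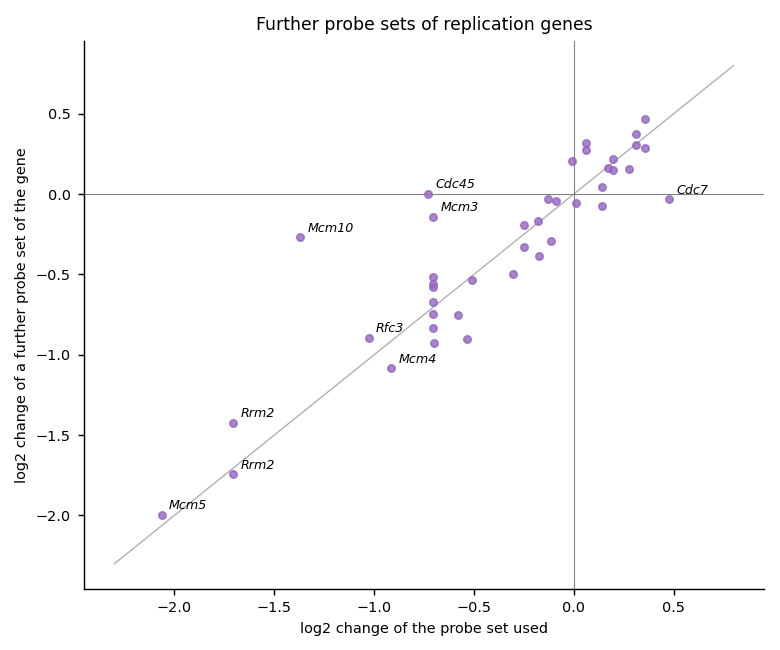
Log2 change of each of the 41 further probe sets (y axis) against that of the probe set used for the same gene (x axis), with the line of equal change. The further probe sets of Mcm5, Rrm2, Rfc3 and Mcm4 lie near the line, and those of Mcm10 and Cdc45 lie well above it.

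Other genes of the pathway were taken from 4 lists by function. Of all genes 58.8% were below 0, and among 37 measured further fork and origin proteins 30 were, with a median of -0.43. In that list 1 passed on each side, beside 0.709% of all genes lower and 1.52% higher. At an unadjusted p under 0.05 (limma) 21 of the 37 were lower and 2 higher, beside 8.9% and 9.17% of all genes. The groups did not overlap for 24 lower and 3 higher, beside 29.6% and 21.1% of all genes. Chtf18, part of an alternative clamp loader, fell from 4.60 and 4.64 to 3.85 and 3.68 (log2 change -0.85 ± 0.12, SE, limma adjusted p = 0.0273), with both SAHA values under the 25th percentile of their arrays. The histone chaperone Asf1a rose from 9.15 and 9.18 to 9.99 and 9.95 (0.80 ± 0.13, adjusted p = 0.0407). Its paralogue Asf1b, which is tied to S phase, had -0.74 (0.170). Both calls were lost without SAHA replicate 1 (adjusted p = 0.117 and 0.267) and without SAHA replicate 2 (0.118 and 0.159), and that of Asf1a also without control replicate 1 (0.0708) or 2 (0.0790).

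Among 33 further nucleotide metabolism genes 22 were below 0 (median -0.15), beside 58.8% of all genes. At an unadjusted p under 0.05 (limma) 4 were lower and 7 higher, beside 8.9% and 9.17% of all genes. The groups did not overlap for 10 lower and 11 higher, beside 29.6% and 21.1% of all genes. Upp1, the uridine phosphorylase that breaks uridine down, rose from 7.06 and 7.13 to 8.94 and 8.78 (log2 change 1.76 ± 0.15, SE, limma adjusted p = 0.0114). Its call was lost without SAHA replicate 1 (adjusted p = 0.0694), and none of the list fell. Among 36 RB-E2F and G1/S control genes 18 were below 0 (median -0.02), beside 58.8% of all genes. Of these 36 genes 2 rose and none fell, beside 1.52% and 0.709% of all genes. Ccnd2, cyclin D2, rose from 9.40 and 10.05 to 11.48 and 11.80 (1.92 ± 0.23, adjusted p = 0.0205). Cdkn2d, an inhibitor of the kinases that D-type cyclins activate, rose from 8.50 and 8.82 to 9.75 and 9.63 (1.03 ± 0.16, adjusted p = 0.0398). Cyclin D2 and an inhibitor of its kinases were thus higher together. Without SAHA replicate 1 the adjusted p was 0.0716 for Ccnd2 and 0.231 for Cdkn2d, without SAHA replicate 2 it was 0.0680 and 0.118, and without control replicate 1 it was 0.0576 for Cdkn2d.

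Of 21 mitosis genes 19 were below 0, beside 58.8% of all genes, with a median of -0.58 that was -0.25 without control replicate 1, and none passed (limma). At an unadjusted p under 0.05, 9 were lower, beside 8.9% of all genes. Aurka, the mitotic kinase with the largest change of the list and named here after its values were seen, was 7.24 and 6.35 in control and 5.85 and 5.38 with SAHA (log2 change -1.18 ± 0.32, SE, adjusted p = 0.127). Among genes whose mean over all 4 arrays lay above the median of such means, the largest changes were -0.71 for the spindle protein Nusap1, -0.69 for the checkpoint kinase Bub1b and -0.68 for Prc1. Control replicate 1 exceeded control replicate 2 by 0.5 or more in 16 of these 21 genes, beside 5.01% of all genes. The helicase and nucleotide synthesis genes and the mitosis genes therefore shared both the direction with SAHA and the gap between control arrays. Between the SAHA arrays too, replicate 1 was the higher in 5 of 6, 4 of 4 and 19 of 21 of them, beside 44.5% of all genes. Their median gaps were 0.31, 0.13 and 0.39 there, beside 0.80, 0.61 and 0.60 between the control arrays. The difference between these lists was not tested.

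Markers of neutrophils and their precursors also moved between the groups. Of 9 measured, 5 fell (Ngp, Ltf, Camp, S100a8 and S100a9) and 1 rose (Prtn3), beside 0.709% and 1.52% of all genes. Below 0 were 8 of the 9, beside 58.8% of all genes, with a median log2 change of -0.82, while Prtn3 had 3.655. The mean level of the 9, which the rise of Prtn3 lifts, was 6.85 and 6.99 in control and 6.46 and 6.47 with SAHA. The fits without each array are not given here for these markers. None of the 9 was under the 25th percentile on all arrays. Control replicate 1 was the higher control array for 3 of these 9 markers, beside 37 of the 45 replication genes. Of 7 dendritic markers none passed, with mean levels of 11.61 and 11.64 in control and 11.45 and 11.54 with SAHA. None passed either among 5 macrophage or monocyte, 4 blood progenitor and 4 lymphocyte markers. Below 0 were 5 of 7 dendritic, 5 of 5 macrophage or monocyte, 3 of 4 blood progenitor and 4 of 4 lymphocyte markers, beside 58.8% of all genes. Both SAHA values lay under both control values for 2, 3, 1 and 1 of them, beside 29.6% of all genes. The lowest macrophage or monocyte change was -0.92. The part of granulocytic or other cell types in the changes of the replication genes was not tested.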

How the data were processed

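Total RNA (6 µg per array) was labelled for Affymetrix arrays, per the labels' protocols. The authors deposited log2 values per probe set, a scale read from the values. The submitters' processing notes list R 2.7. The method of probe summarisation and normalization was not given in the sources used here. Having few arrays limits the precision.

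Of 45101 probe sets 34958 had 1 gene symbol in a platform annotation that can be old, 932 several and 9211 none. Symbols were updated through Entrez identifiers for the 34754 held in a RefSeq table. Each of 18194 genes was read by its probe set with the highest mean.

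Groups followed the sample titles. The comparison used limma 3.58.1 in R 4.3.3 (lmFit, eBayes with trend, two-sided) with no filter or covariate. This step was tested on simulated data with independent errors and no effect shared by same-numbered arrays. The simulation therefore does not cover such a shared effect in these arrays. Members, lists and E2F words were chosen with earlier results of these data known. Named in full are members past the threshold, those with non-overlapping groups and a log2 change of at least 1 in size, and the largest of each group. The other helicase subunits and further members given with array values were added after their values were seen. Of pathway lists, members past the threshold are named, or otherwise the 3 largest changes among genes whose mean over all arrays is above the median. Of 133 pathway symbols 127 were measured, and of 32 marker symbols 29. Alternatives were other eBayes settings, scalings, floors, filters, probe set choices, a replicate term and fits without each array, where a group of 1 array takes its spread from the remaining group.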

Additional observations from a re-analysis of the deposited data

How the results depend on the processing

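The median log2 change of the 45 members and that of MCM2-7 kept their sign in all 14 alternatives. The other eBayes settings, the floor and the replicate term leave the log2 changes of these genes as they are, so their agreement was fixed beforehand. Centring the arrays moves all genes by the same small amount. Without each array in turn the medians ranged from -0.40 to -0.16 and from -1.12 to -0.24, the count of members past the threshold from 0 to 11 and that of all genes from 31 to 529. After a floor at the 20th percentile no gene and no member passed (limma, 3034 genes and 16 members, 13 of them lower, at an unadjusted p under 0.05). Among genes above the median level 226 genes and 0 of the 36 members in that set passed (limma, 2242 genes and 15 members, 13 of them lower, at an unadjusted p under 0.05), with Mcm5 at an adjusted p of 0.0542. With replicate number as a block 3616 genes and 26 members passed, 23 lower and 3 higher. Deviations of same-numbered arrays from their group means correlated at 0.567 across genes, but the labels do not say that a number marks a common culture, so the block was not used for calls. Without each array in turn the log2 change of Cdc7 ranged from -0.40 to 1.36 and that of Rpa2 from -0.40 to 0.059, so both changed sign. Of the members past the threshold Mcm5 missed it with probe sets averaged (-1.45, adjusted p = 0.0722) and with the probe set without the mark of shared sequence (-1.995, 0.0518), and Tk1 missed it with an offset of 32 (-0.95, 0.0616) and in the fit on averaged probe sets, where its own value is the same (0.0509). The Mcm5 average takes in a further probe set at 3.49 to 4.02 with a change of -0.29. On 3 arrays its value was under the 25th percentile. The cause of the other shifts was not tested.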

Other observations

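Genes of S phase and mitosis outside the 45 members also differed between the control arrays. Uhrf1, which recruits DNA methyltransferase to new strands, was 7.64 and 5.87 on the control arrays and 5.40 and 5.14 on the SAHA arrays. The checkpoint mediator Clspn was 6.67 and 5.15 in control and 4.72 and 4.78 with SAHA. Cad, which begins pyrimidine synthesis, was 7.50 and 5.86 in control and 6.27 and 5.72 with SAHA, so that its groups overlapped. Cyclin A2 (Ccna2) was 8.67 and 7.09 in control and 6.96 and 6.07 with SAHA. None of these 4, named after their values were seen, passed the threshold between the groups (limma adjusted p = 0.211, 0.244, 0.515 and 0.248).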
